A study of Mus musculus with 14 samples.

Results

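Medulloblastoma in mice with 1 working copy of patched passes through a preneoplastic stage, and the data here ask which genes at that stage lie off the straight line that runs from granule cell precursor to tumor. Each of 14 samples of cells freed from mouse cerebellum gave RNA for 1 expression array. For every probe set (the short probes on the array that report 1 transcript), the offset was the mean of the 5 pretumor arrays minus the average of the precursor mean (GCP, 4 arrays) and the tumor mean (5 arrays). All 14 samples of the series entered, and 12422 of its 12488 probe sets were tested, since 66 array controls were set aside. Of these, 10833 carried a single gene symbol in the platform annotation, 396 several and 1193 none. Each of 8251 genes was represented by the probe set with its highest mean.

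The GCP samples came from patched+/- mice aged 7 days, the pretumor samples from patched mutants aged 6 weeks, and the tumor samples from patched mutants aged 10 to 25 weeks with outward signs of the tumor. All mice descended from patched heterozygotes bred with 129X1/SvJ mice. By the group labels, no group had both copies of patched intact. The labels also describe a Math1-GFP transgene and do not tie it to these arrays. Cells were taken from the border of 35% and 65% Percoll after papain digestion of the cerebellum and were not sorted, so each sample may hold other cerebellar cells. Age and stage cannot be told apart in this design. The labels do not say whether the samples of a group were separate animals, and each p-value therefore reflects only how far these samples spread, which may be technical.

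Granule cell precursors divide in the outer layer of the young cerebellum in response to sonic hedgehog, leave the cell cycle, move inward and become granule neurons. Patched is the receptor that holds this pathway in check. In patched heterozygotes, clusters of precursor-like cells can persist on the cerebellar surface after the layer has normally disappeared, and some later grow into tumors. An offset of 0 means that the pretumor mean lay midway between precursor and tumor. A positive offset can arise when the pretumor arrays exceed both other stages, when a gene that rises toward the tumor has already risen, or when a gene lost in the tumor is still present. A negative offset covers the mirror cases.

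Values are log2 of the deposited intensity, with values below an intensity of 2.455 raised to it, which is 1.3 on the log2 scale. An intensity of 16 (4 on the log2 scale) marks the top of a low band that held 70.5% of all values. Where a group mean lay in the low band, a fold is given as a lower bound against 16. The median intensity of the arrays ranged from 4.11 to 4.39. Correlations between arrays of a group ran from 0.9939 to 0.9977 for GCP, 0.9874 to 0.998 for pretumor and 0.9831 to 0.9956 for tumor, and pretumor 3 and tumor 2 had the lowest mean correlation with their own groups (0.99 and 0.9847). GCP 1 with GCP 2 (0.9977) and GCP 3 with GCP 4 (0.9975) resembled each other most. The 3' to 5' log2 ratio of the Gapdh probe sets, a sign of RNA quality, ran from -0.0182 to 0.558 in GCP, 0.00563 to 1.08 in pretumor and 0.151 to 0.419 in tumor. That of the actin probe sets ran from 3.96 to 4.27, 4.13 to 4.87 and 3.93 to 4.85 in the same order, and the part of either ratio in the results was not tested. Ptch1 itself (104030_at) had group means of 7.37, 7.53 and 7.79 and an offset of -0.05 ± 0.21 (SE; adjusted p = 0.978), and its second probe set (104031_at) lay in the low band on every array. Where the deleted part of the allele lies relative to these probes is not stated, so Ptch1 checks no label here.

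The pretumor stage lay off the line for 239 probe sets by limma with Benjamini-Hochberg adjustment over 12422 probe sets. The 139 above the line were 1.12% of those tested and the 100 below were 0.805%. Counted as genes, 110 lay above (1.33% of 8251) and 80 below (0.97%). For 106 of the 110 above, the pretumor mean exceeded both other means. The excess over the nearer stage was often small: 27 of the 110 were called against each other stage (78 against GCP, 54 against tumor), and the median of the smaller difference was 0.419. For 44 genes called above all 5 pretumor arrays lay above all 9 others, against 55 genes (0.667%) of all 8251. Of the 80 below, 75 had a pretumor mean nearer to the tumor mean than to the GCP mean. Of these 80, 60 had a pretumor mean below both others, by small margins (the median of the smaller difference over all 80 was 0.196), and 12 had all 5 pretumor arrays below the 9 others, against 18 genes (0.218%) of all. The median offset over all genes was -0.018, and the median size of an offset was 0.075. At an unadjusted p under 0.05, 15.3% of all genes passed in either direction. By comparison, the pretumor mean differed from the GCP mean for 432 genes (5.24%) and from the tumor mean for 90 genes (1.09%) in the same fit. These comparisons share the pretumor arrays.

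**Figure D1:**
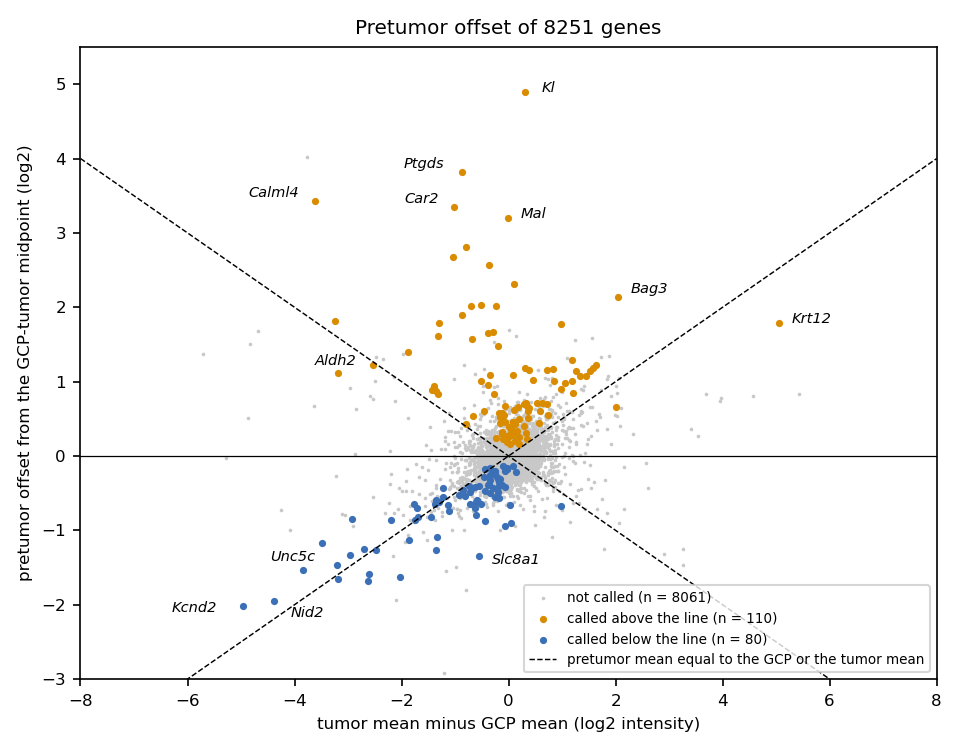
The horizontal axis is the tumor mean minus the GCP mean and the vertical axis the pretumor offset, both in log2 intensity, for 8251 genes. The dashed lines mark a pretumor mean equal to the GCP or the tumor mean: above both lines the pretumor stage is the highest of the 3, as for 106 of the 110 genes called above, and most of the 80 genes called below lie near the line where the pretumor mean equals the tumor mean.

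A stricter question is whether the pretumor stage exceeded both other stages at once. Taking the larger p of both pairwise differences and adjusting over all probe sets, 9 probe sets were higher than both (0.0725%) and 1 was lower than both (0.00805%). The first 9 included Kl, Ptgds and Mal; Dao, Aldoc, Pygm, Gjb6, a second Bag3 probe set and 1 probe set without a single symbol had no group mean above the low band. The count of 9 depended on single arrays. By limma it fell to 0 without GCP 1, GCP 2, GCP 3, pretumor 2, pretumor 4 or tumor 4, with 208 to 239 probe sets at an unadjusted p under 0.05 in those fits against 241 with all arrays. It was 1 without GCP 4, tumor 2 or tumor 5, 4 without pretumor 1 or tumor 3, and 14 without pretumor 3 or pretumor 5. The adjusted p of Kl for being higher than both was 0.0265 with all arrays and 0.0204 to 0.102 without 1 array. The offsets of Kl, Ptgds and Mal themselves passed without any 1 array.

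Offsets that reach into the low band depended on the floor. With every value under 16 raised to 16, 49 of 76 called probe sets followed here lost their call. Those with all group means in the low band had an offset of 0.12 or less. For 6 genes described here, a smaller offset went with the loss: Gsn fell from 2.81 to 1.43 (adjusted p = 0.143), Folr1 from 2.01 to 0.75 (0.77) and Calb1 from 1.9 to 0.55 (0.539). Below the line, Kcnd2 went from -2.02 to -1.13 (0.0866), Tes from -1.68 to -0.55 (0.103) and Col3a1 from -1.63 to -0.32 (0.128). Kl (3.08), Evi2a (1.21), Mog (1.12), Nid2 (-0.87), Cd93 (-0.7) and Unc5c (-0.77) kept their calls at these smaller offsets, with adjusted p from 3.23e-05 to 0.0494. Gsto1 kept an offset of 1.05 and narrowly lost its call (adjusted p = 0.0546). Atf3, Hspa1a, Hsph1, Mbp, Fabp7, Col4a1, Fdft1, Psmd14, Sstr2 and Acly kept their offsets and lost their calls (adjusted p = 0.0647 to 0.132).

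Kl, which encodes klotho, a membrane protein abundant in choroid plexus and kidney, had the largest offset of any gene. On the GCP arrays 1 to 4 it read 1.49, 2.63, 2.2 and 1.85. The pretumor arrays 1 to 5 read 7.85, 6.91, 9.06, 5.68 and 5.91, and the tumor arrays 1 to 5 read 3.87, 2.82, 1.98, 1.73 and 1.3. Every pretumor array lay well clear of every other array, and all other arrays lay in the low band. The offset was 4.89 ± 0.58 (SE; adjusted p = 0.00165), with a pretumor level at least 8.47-fold higher than in either other stage. In a bulk sample, a change in the number of cells of a type and a change in RNA per cell cannot be told apart, and this holds for all results here.

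Other choroid plexus genes were called beside it. The choroid plexus secretes cerebrospinal fluid and lies in the ventricle beside the cerebellum. Of 9 measured members of the choroid plexus and ependyma list, 4 lay above the line and 0 below, against 1.33% and 0.97% of all genes, with a median offset of 1.67 (-0.018 over all genes). Calml4, a calmodulin-like protein, read 5.38, 7.15, 7.76 and 7.72 in GCP, 9.04, 8.88, 9.65, 7.78 and 7.72 in pretumor, and 4.13, 3.52, 3.6, 2.78 and 2.85 in tumor. Its pretumor range overlapped the GCP range and lay far above the tumor range (offset 3.43 ± 0.46, adjusted p = 0.00388). Folr1, a folate receptor of the choroid plexus epithelium, had means of 2.85, 4.52 and 2.16 (offset 2.01 ± 0.4, adjusted p = 0.0271). Its call was lost without GCP 1, GCP 2, GCP 4, pretumor 2 or pretumor 3 (adjusted p = 0.0501 to 0.0704). Slc4a5, a bicarbonate transporter of the same epithelium, was called with all means in the low band (offset 1.67, adjusted p = 0.0455), and that call was lost without any 1 of 12 arrays (all but pretumor 4 and pretumor 5; adjusted p = 0.0605 to 0.121). Ttr, the thyroid hormone carrier transthyretin, was named after its values were seen. It read 13.29, 12.89, 13.77, 12.31 and 12.34 in pretumor, above all 9 other arrays, but its tumor values spread from 2.88 to 10.14, and its offset of 4.02 ± 1.15 did not pass (adjusted p = 0.118). Aqp1, the water channel of this epithelium, and Foxj1, a regulator of cilia, stayed in the low band at all stages. The summed intensity of the 9 members ran from 6530 to 9210 in GCP, 12500 to 22000 in pretumor and 4760 to 9260 in tumor. Most of that sum came from Ttr and from Cd24a, a surface protein of many cell types that had an offset of 0.09 (adjusted p = 0.88). The 7 others summed to 69.8 to 249 in GCP, 297 to 1410 in pretumor and 29.3 to 49.5 in tumor.

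The oligodendrocyte list showed the largest share of calls. Oligodendrocytes wrap axons in myelin, which forms in the mouse cerebellum in the weeks after birth. Of 13 measured members, 9 lay above the line (Mbp, Mog, Mal, Mag, Car2, Gsn, Cryab, Nkx6-2 and Septin4) and 0 below, against 1.33% and 0.97% of all genes, with a median offset of 0.95; 3 of the 9 (Mag, Cryab and Nkx6-2) had all group means in the low band. Mal, a membrane protein of compact myelin, read 2.74, 3.6, 3.7 and 3.46 in GCP and 3.88, 3.35, 3.75, 2.9 and 2.99 in tumor, against 6.66, 7.23, 5.01, 7.57 and 6.39 in pretumor. No pretumor array overlapped the others, with pretumor 3 the lowest of the 5 (offset 3.2 ± 0.37, adjusted p = 0.00156, at least 5.94-fold higher than either stage). Car2, a carbonic anhydrase abundant in oligodendrocytes and also made by choroid plexus, read 6.25, 6.38, 6.83 and 6.5 in GCP, 10.07, 9.22, 9.31, 9.41 and 8.64 in pretumor, and 6.67, 6.39, 5.14, 4.81 and 4.35 in tumor. All 5 pretumor arrays lay above all others, and the pretumor mean was 7.16-fold higher than the GCP mean and 14.5-fold higher than the tumor mean (offset 3.35 ± 0.38, adjusted p = 0.00128). Mog, a glycoprotein on the outer face of myelin, had means of 2.74, 5.12 and 2.38 (offset 2.56 ± 0.38, adjusted p = 0.00668). Gsn, an actin-severing protein that oligodendrocytes make, had means of 3, 5.4 and 2.19 (offset 2.81 ± 0.41, adjusted p = 0.00598).

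In Mbp and Septin4 the pretumor and GCP levels were close. Mbp, myelin basic protein, read 6.4, 7.17, 7.07 and 7.01 in GCP and 7.27, 7.23, 6.85, 7.72 and 6.74 in pretumor, so these groups overlapped, and 5.73, 5.71, 5.76, 5.51 and 4.87 in tumor, below both. Its offset of 0.95 ± 0.2 (adjusted p = 0.0349) was lost without any 1 of GCP 1, GCP 3, GCP 4, pretumor 1, pretumor 2, pretumor 4 or tumor 4 (adjusted p = 0.0551 to 0.0985), and its second probe set (96310_at) had an offset of 0.08 (adjusted p = 0.899). Septin4, a filament-forming GTP-binding protein, had means of 10.48, 10.68 and 9.12 (offset 0.88 ± 0.13, adjusted p = 0.00724). Mag, which joins myelin to the axon, kept all means in the low band (offset 1.47, adjusted p = 0.0152; 0.0511 without pretumor 4). Cldn11, the claudin of myelin tight junctions, was also named after its values were seen and did not pass (offset 1.53 ± 0.36, adjusted p = 0.0561). Cnp and Mobp stayed in the low band. Of 4 measured members of the oligodendrocyte precursor list 0 were called by limma, and 2 passed at an unadjusted p under 0.05, 1 in each direction. Ptprz1, a receptor phosphatase of these precursors and of astrocytes, had means of 7.85, 7.19 and 3.16 and an offset of 1.69 ± 0.4 that narrowly missed (adjusted p = 0.055). Pdgfra, their receptor for platelet-derived growth factor, had an offset of -0.66 (adjusted p = 0.167). The summed intensity of the 13 oligodendrocyte members ran from 1620 to 1810 in GCP, 2380 to 3360 in pretumor and 599 to 943 in tumor. Septin4, the brightest member by its group means, weighs most in these sums.

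The choroid plexus and oligodendrocyte genes did not all rank the 5 pretumor arrays alike. Kl was highest in pretumor 3 (9.06) and lowest in pretumor 4 (5.68), and Calml4, Slc4a5 and Ttr also had their highest pretumor value on pretumor 3. Folr1 did not, with 6.25 on pretumor 1 and 5.05 on pretumor 3. Mal was highest in pretumor 4 (7.57) and lowest in pretumor 3 (5.01), and Mog, Gsn and Mag were lowest on pretumor 3 as well. Other members of that list differed: Mbp was lowest on pretumor 5 (6.74), Septin4 on pretumor 1 (10.52), and Cryab, in the low band, was highest on pretumor 3 (2.44). Evi2a, a membrane protein gene that lies within an intron of Nf1 and was not on either list, read 5.18, 5.36, 4.5, 6.06 and 5.1 in pretumor, in the order of Mal rather than Kl for its highest and lowest array. It was called above the line at 2.31 ± 0.39 (adjusted p = 0.0112), with GCP values from 2.12 to 3.44 and tumor values from 2.09 to 4.28. Its second probe set (98026_g_at) had an offset of 1.24 that did not pass (adjusted p = 0.0663). Car2 followed neither order, with its highest value on pretumor 1. Over the members with a group mean of 16 or more, the mean log2 level of the choroid plexus list on pretumor 1 to 5 was 9.8, 9.17, 10.04, 8.38 and 8.49, and that of the oligodendrocyte list was 7.38, 7.62, 6.56, 7.96 and 6.98. With 5 arrays this is a description and carries no test.

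**Figure D2:**
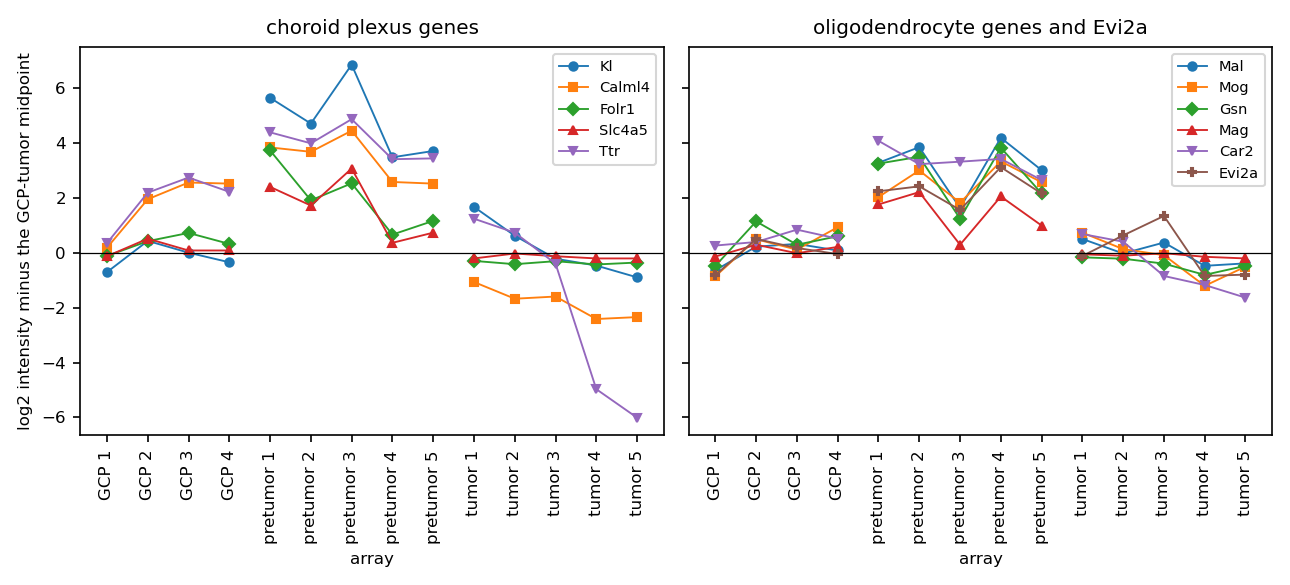
Log2 intensity minus the GCP-tumor midpoint (vertical axis) on each of the 14 arrays (horizontal axis) for 5 choroid plexus genes and, in the second panel, 5 oligodendrocyte genes with Evi2a. Lines join the points of 1 gene within a group and the order of arrays has no meaning; Kl peaks on pretumor 3 (9.06 before the midpoint is subtracted), where Mal has its lowest pretumor value (5.01).

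Astrocyte genes were called on both sides of the line, while most genes of the meninges list had negative offsets. Of 16 measured astrocyte and Bergmann glia members, 3 lay above the line and 1 below, against 1.33% and 0.97% of all genes (median offset 0.53). Clu, the secreted chaperone clusterin, had means of 4.15, 6.31 and 3.12 (offset 2.67 ± 0.48, adjusted p = 0.014). Aldoc, a brain aldolase of astrocytes and Purkinje cells, and Gjb6, the astrocyte connexin 30, had all means in the low band (offsets 1.57 and 1.09, adjusted p = 0.000195 and 0.000525) and no call for either with values floored at 16 (adjusted p = 1). Fabp7, the fatty acid binding protein of radial and Bergmann glia, went the other way and is described with the genes below the line. Gfap stayed in the low band. Aqp4, the astrocyte water channel, lay on the line, with means of 9.19, 6.52 and 3.91 and an offset of -0.03. The summed level of this list ran from 12700 to 16800 in GCP, 2700 to 7440 in pretumor and 1460 to 3490 in tumor. Its GCP and pretumor ranges did not overlap, and its pretumor and tumor ranges did. Without Fabp7 the sums were 3910 to 5990, 2110 to 6580 and 1010 to 2470, and the GCP and pretumor ranges overlapped.

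Ptgds makes prostaglandin D2 and is abundant in meninges, choroid plexus and oligodendrocytes. It read 4.26, 5.3, 6.26 and 5.89 in GCP, 8.7, 9, 8.58, 9.21 and 8.59 in pretumor, and 5.62, 5.21, 4.5, 3.84 and 3.63 in tumor. The 5 pretumor arrays lay above all others and close together, with an SD of 0.28 against 1.4 for Kl and 0.99 for Mal. The offset was 3.82 ± 0.38 (adjusted p = 0.000632), and the pretumor mean was 10.5-fold higher than GCP and 19.1-fold higher than tumor. Its other probe sets (92546_r_at and 102105_f_at) were called as well, with offsets of 2.56 and 1.11. It was the only 1 of 21 measured members of the meninges and fibroblast list called above the line, and 4 collagen and basement membrane members were called below it. The median offset of the list was -0.38, and 3 of the 21 members had a positive offset. At an unadjusted p under 0.05 by limma, 2 members passed above and 10 below. The summed level of that list ran from 2320 to 4030 in GCP, 1620 to 2080 in pretumor and 376 to 2930 in tumor.

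Marker lists of cell types outside the granule lineage held 19 of the 110 genes above the line (17.3%) and 7 of the 80 below (8.75%), against 1.77% of all 8251 genes. The lists were chosen with earlier results of these data known, so these shares are descriptions and not a test. The part of these cells in the remaining calls was not tested. The microglia and macrophage list had 0 of 25 members called by limma, with 1 above and 0 below at an unadjusted p under 0.05. The red blood cell list had 0 of 7 called and 0 at that unadjusted level, although its summed level ran from 1930 to 4380 in GCP, 756 to 3430 in pretumor and 26 to 400 in tumor. The lymphocyte list had 0 of 14 called, with 1 at the unadjusted level and no member with a group mean of 16. Of 11 measured members of the Purkinje cell list, 1 was called above the line and 1 below, against 1.33% and 0.97% of all genes. The call below was Lhx5, with all means in the low band (offset -0.4, adjusted p = 0.00388). It held without any 1 array and was lost with values floored at 16. The call above was Calb1, the calcium buffer calbindin (offset 1.9 ± 0.43, adjusted p = 0.0487). Calb1 read 2.36, 2.26, 2.32 and 4.25 in GCP and 5.07, 3.43, 5.25, 4.59 and 2.95 in pretumor. Its call was lost without any 1 of 12 arrays (all but GCP 4 and pretumor 5, adjusted p = 0.0618 to 0.117).

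**Figure D3:**
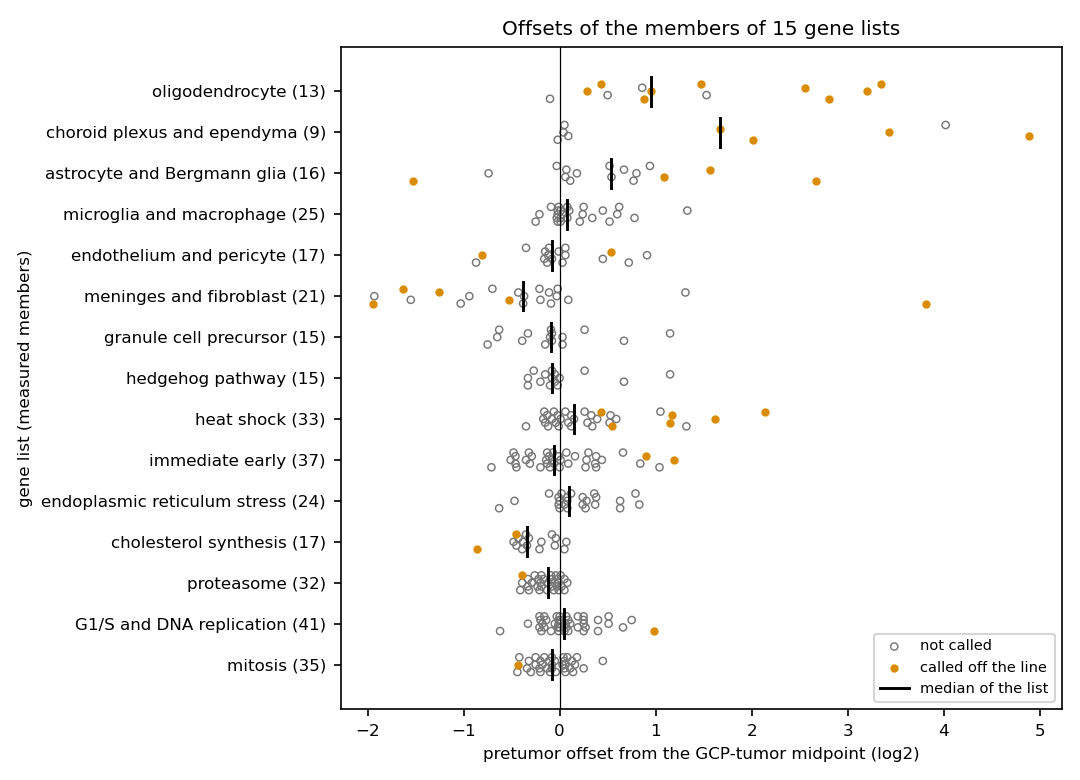
Each point is 1 measured member of a gene list, placed by its pretumor offset from the GCP-tumor midpoint (horizontal axis, log2), with the list and its number of members on the vertical axis, called members filled and the list median as a bar. The oligodendrocyte (9 of 13) and choroid plexus (4 of 9) lists hold the largest shares of called members. The granule cell precursor, hedgehog, microglia and endoplasmic reticulum stress lists hold none, where 1.33% of all genes were called above and 0.97% below. The call farthest to the right is Kl of the choroid plexus list, followed by Ptgds of the meninges list.

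Markers of the labelled cell type gave no call, as most genes did (1.33% of all genes were called above and 0.97% below). None of 15 measured granule cell precursor markers and none of 15 hedgehog pathway genes was called by limma (median offsets -0.09 and -0.08); at an unadjusted p under 0.05, 1 precursor marker lay above and 3 below, and 1 hedgehog gene lay above and 0 below. Zic1, a transcription factor of the granule lineage, had means of 12.74, 12.59 and 12.64 (offset -0.1 ± 0.09, adjusted p = 0.718). Pax6, another, had means of 10.54, 8.8 and 8.31 (offset -0.63 ± 0.27, adjusted p = 0.338). Neurod1, which drives granule neuron differentiation, had means of 12.83, 11.45 and 11.58 (offset -0.75 ± 0.2, adjusted p = 0.0897). Sfrp1, a secreted Wnt antagonist that is a hedgehog target in these cells, was the marker and pathway member with the largest positive offset, 1.15 ± 0.47, and did not pass (adjusted p = 0.3). Atoh1, the defining transcription factor of the precursors, and Gli1, the transcription factor induced by hedgehog, stayed in the low band at every stage, with means of 1.95, 1.9 and 2.01 for Atoh1 and 2.03, 2.51 and 2.46 for Gli1. Their probe sets say nothing about levels below that band. Ccnd2, the D-type cyclin with the highest mean of the pathway list, had an offset of 0 ± 0.38 (adjusted p = 1).

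Some heat shock genes lay above the line, a minority of their list. Chaperones fold new and damaged proteins, and many are switched on by heat shock factor when unfolded protein accumulates. Of 33 measured members, 6 lay above the line (Bag3, Dnajb2, Hspa1a, Hsph1, Hspd1 and Cryab) and 0 below, against 1.33% and 0.97% of all genes. The median offset of the list was 0.15 (-0.018 over all genes). At an unadjusted p under 0.05, 14 members passed above and 5 below, against 15.3% of all genes in either direction. In 4 of the 5 called members above the low band the pretumor mean, like the tumor mean, lay above the GCP mean. Cryab is also on the oligodendrocyte list, with all means in the low band. Bag3, a co-chaperone of Hsp70 induced by heat, read 5.54, 5.92, 5.66 and 6.18 in GCP, 8.11, 9.19, 9.66, 8.71 and 9.27 in pretumor, and 8.26, 8.33, 8.61, 7.17 and 6.99 in tumor. Pretumor lay above every GCP array and overlapped tumor only through pretumor 1. The pretumor mean was 8.97-fold higher than GCP (adjusted p = 0.000722) and 2.17-fold higher than tumor (adjusted p = 0.219), giving an offset of 2.14 ± 0.32 (adjusted p = 0.00682). Its second probe set (96167_at), in the low band by its means, had an offset of 1.39 (adjusted p = 0.000632).

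Hsph1, the Hsp110 nucleotide exchange factor, read 10.18, 10.25, 9.91 and 10.23 in GCP, 11.48, 11.93, 12.21, 12.07 and 11.9 in pretumor, and 11.49, 12.25, 11.66, 10.8 and 10.8 in tumor. Pretumor and tumor overlapped, and both lay above GCP (offset 1.15 ± 0.22, adjusted p = 0.0229; lost without pretumor 2, 3, 4 or 5, at 0.0525 to 0.068). Hspd1, the mitochondrial chaperonin Hsp60, moved less but with less spread: its means were 11.49, 12.41 and 12.23 and its offset 0.55 ± 0.08 (adjusted p = 0.00756). Hspa1a, an inducible Hsp70, read 11.13, 11.36, 11 and 9.66 in GCP, 12.53, 12.48, 12.16, 12.26 and 12.42 in pretumor, and 11.85, 12.1, 11.82, 11.02 and 11.31 in tumor. All 5 pretumor arrays were above the other 9, but GCP 4 was far below the other GCP arrays, and the offset of 1.17 ± 0.26 (adjusted p = 0.0472) was lost without any 1 of 11 arrays (all but GCP 2, GCP 4 and tumor 2; adjusted p = 0.0579 to 0.131). Hspa1b, its near-identical copy, had an offset of 1.05 ± 0.28 and did not pass (adjusted p = 0.0897); probes for this pair may not tell the copies apart. Dnajb2, an Hsp40 co-chaperone enriched in neurons, differed from the rest in that it was lost in tumor: its means were 4.8, 5.77 and 3.49 (offset 1.62 ± 0.25, adjusted p = 0.00843).

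Of the 33 measured heat shock genes, 22 had a positive offset, against 3389 of all 8251 genes. Some of the uncalled members had offsets of 0 or below. Hspa8, the constitutive Hsc70, had an offset of -0.02 ± 0.09 (adjusted p = 0.994). Stip1, which links Hsp70 to Hsp90, had an offset of -0.01 (adjusted p = 0.998). Cct4, Cct5 and Cct8, subunits of the cytosolic chaperonin ring, had offsets of -0.15, -0.17 and -0.35, none of which passed (adjusted p = 0.107 to 0.358). Hsp90aa1 (0.39, adjusted p = 0.11), Dnajb1 (0.52, adjusted p = 0.0639) and Hspe1 (0.53, adjusted p = 0.11) had positive offsets that did not pass. So did Hspa4 (0.34, adjusted p = 0.23) and Hspa9 (0.15, adjusted p = 0.562), while Dnajb6 had an offset of -0.16 (adjusted p = 0.684). Whether called and uncalled members differ from each other was not tested. Of 24 measured genes of the endoplasmic reticulum stress list, 0 were called by limma and 4 lay above and 0 below at an unadjusted p under 0.05. Hspa5, its chaperone BiP, had an offset of 0.63 ± 0.21 (adjusted p = 0.191).

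**Figure D4:**
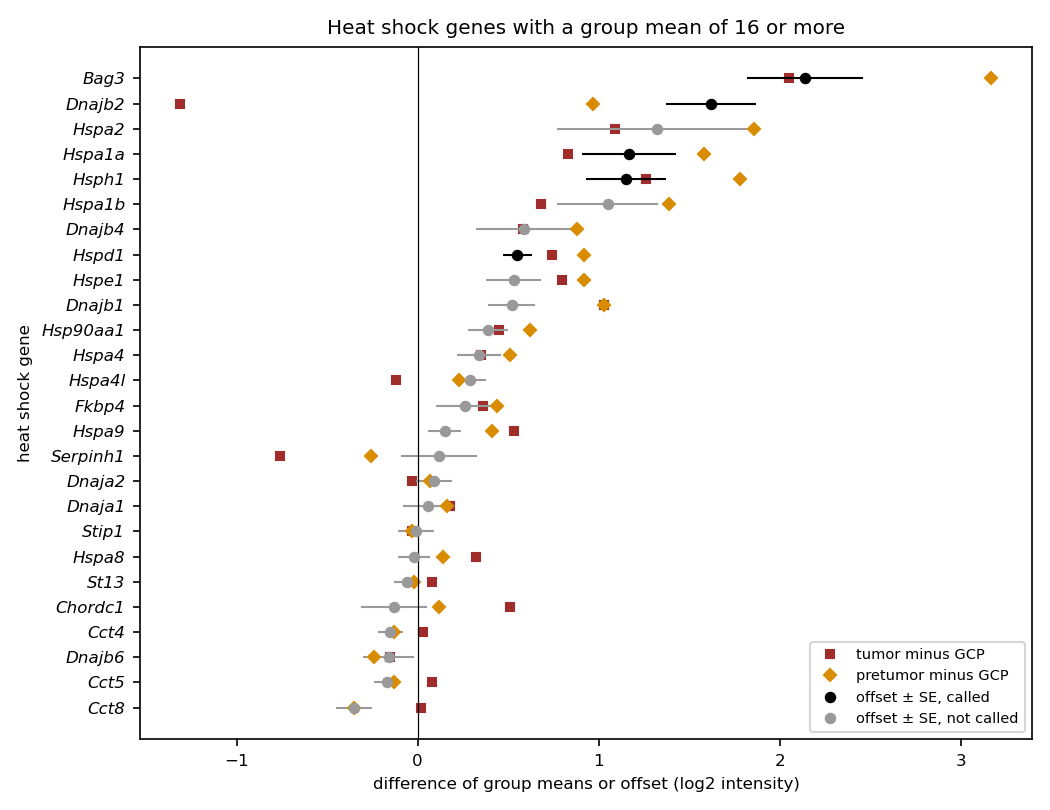
For the 26 heat shock genes with a group mean of 16 or more, diamonds give the pretumor minus GCP and squares the tumor minus GCP difference, and circles the offset with its standard error (horizontal axis, log2 intensity), black where called. For Bag3, Hspa1a, Hsph1 and Hspd1 the pretumor difference from GCP exceeds that of the tumor, and Dnajb2 is the called gene whose tumor mean lies below GCP.

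Promoter sequence is shown for 3 of the called heat shock genes because each carries the core of a heat shock element, the site that heat shock factor binds. The cores searched were GAANNTTC and TTCNNGAA, which are their own reverse complements, so both strands are covered; tandem cores overlap. Sequences are those of RefSeq on build GRCm38.p6, 5′ to 3′ toward the gene, with the cores in capitals. Hspa1a is the 150 bases before its start (chr17:34972157-34972306, minus strand), Hsph1 likewise (chr5:149636337-149636486, minus strand, the outer of its start sites), and Hspd1 the 30 bases around its cores (chr1:55088053-55088082, minus strand).
Hspa1a: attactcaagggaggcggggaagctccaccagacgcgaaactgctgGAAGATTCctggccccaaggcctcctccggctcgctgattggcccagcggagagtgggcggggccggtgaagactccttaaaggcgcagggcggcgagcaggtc
Hsph1: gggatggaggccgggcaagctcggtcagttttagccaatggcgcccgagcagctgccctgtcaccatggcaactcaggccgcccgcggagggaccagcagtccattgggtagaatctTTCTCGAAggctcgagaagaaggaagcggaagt
Hspd1: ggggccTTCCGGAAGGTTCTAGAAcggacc
The core begins 104 bases before the start of Hspa1a and 33 bases before that of Hsph1. Hspd1 holds 3 overlapping cores from 144 to 134 bases before its inner start site, and the same stretch lies 89 bases before the start of Hspe1, which is transcribed the other way. The 250 bases before the outer start site of Hspd1 held no core. Of the 27 measured heat shock genes with a promoter in the table, 12 (44.4%) held a core within the 250 bases before a start. The share was 12.6% of the 6576 genes on the array with a promoter, and 14.5% of all 27025 genes in the table. Among the called members 3 of 5 with a promoter held one, and Bag3 and Dnajb2 had neither form of these letters in the window. Of the genes called above the line with a promoter, 15 of 86 (17.4%) held a core, and of those below, 4 of 59 (6.78%). These matches are descriptions of sequence.

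Immediate early genes respond within minutes to signals that reach the cell. Of 37 measured members, 2 lay above the line and 0 below, against 1.33% and 0.97% of all genes, with a median offset of -0.06. Atf3, a stress-induced transcription factor, read 10.04, 9.99, 10.3 and 8.94 in GCP, 12.05, 12.09, 11.52, 11.87 and 11.42 in pretumor, and 11.1, 11.58, 11.69, 10.9 and 11.67 in tumor. Pretumor and tumor overlapped above GCP (offset 1.19 ± 0.23, adjusted p = 0.0219; lost without pretumor 1, 2 or 4, at 0.0615 to 0.0727). A second Atf3 probe set (104156_r_at) had an offset of 1.84 and was called, and the other, in the low band, was not. Nr4a2, an orphan nuclear receptor, was called in the low band (offset 0.9, adjusted p = 0.0472; lost without any 1 of 12 arrays, all but pretumor 1 and tumor 3, at 0.0641 to 0.138).

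The other 35 members were not called, and some had sizeable offsets. Klf10, a transcription factor induced by TGF-beta, had an offset of 1.04 ± 0.29 (adjusted p = 0.101), and Egr2, a zinc finger factor, 0.66 ± 0.17 (adjusted p = 0.0881). Fos had means of 11.72, 12.24 and 12.96 and an offset of -0.1 ± 0.18. Fosb, its relative, had GCP values of 2.38 to 3.15, pretumor values of 5.07 to 8.2 and tumor values of 6.35 to 9.84, with an offset of 0.84 ± 0.74 (adjusted p = 0.704). Egr1 had an offset of 0.16 and Jun of 0.38, and neither passed. Myc had pretumor values of 1.88 to 2.75, which overlapped those of GCP (1.99 to 2.11), and tumor values of 3.58 to 5.07. The offset of -0.71 ± 0.26 did not pass (adjusted p = 0.231), while the pretumor to tumor difference of -1.78 did (adjusted p = 0.0129).

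Of the 110 genes above the line, 59 had a pretumor mean nearer the tumor mean, and in 2 of these, Krt12 and Prm1, it lay between the other means. Krt12, a keratin of corneal epithelium, read 2.84, 3.69, 2.67 and 3.35 in GCP, 7.48, 7.6, 7.9, 6.97 and 7.36 in pretumor, and 7.19, 8.63, 8.79, 8.5 and 7.86 in tumor. Every pretumor and tumor array lay above every GCP array, and the pretumor and tumor ranges overlapped (offset 1.8 ± 0.28, adjusted p = 0.00768; pretumor minus tumor -0.73, adjusted p = 0.395). Prm1, a protamine of sperm by its symbol, was named because so few genes shared this class; its probe set (99589_f_at) is of a type that can detect related sequences. It had means of 7.96, 9.63 and 9.97 (offset 0.66 ± 0.11, adjusted p = 0.0106). Cdc6, which loads the replicative helicase onto DNA, read 7.1, 6.79, 6.97 and 6.71 in GCP, 7.85, 8.57, 8.76, 8.32 and 8.54 in pretumor, and 7.61, 8.01, 8.06, 8.01 and 8.07 in tumor. It was the only 1 of 41 measured G1/S and DNA replication genes called (offset 0.98 ± 0.14, adjusted p = 0.00512; list median 0.05). Txnip, the thioredoxin-interacting protein that responds to glucose, exceeded all other arrays at the pretumor stage, with means of 5.46, 7.72 and 6.44 (offset 1.78 ± 0.23, adjusted p = 0.00269). Its second probe set (160548_at), in the low band by its means, had an offset of -0.06 that did not pass (adjusted p = 0.617).

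Aldh2 and Gsto1 were the only 2 of the 110 whose pretumor mean lay between the others and nearer GCP. Aldh2, the mitochondrial aldehyde dehydrogenase, read 7.63, 7.75, 7.64 and 7.65 in GCP, 7.96, 7.73, 7.5, 7.37 and 7.51 in pretumor, and 4.84, 5.65, 5.62, 4.51 and 5.03 in tumor. GCP and pretumor overlapped (difference -0.05, adjusted p = 0.996), and the pretumor mean was 5.6-fold higher than tumor (adjusted p = 0.000267), for an offset of 1.22 ± 0.18 (adjusted p = 0.00622). Both other Aldh2 probe sets were called with offsets of 1.15 and 0.87. Gsto1, a glutathione transferase, had means of 7.24, 6.76 and 4.05 (offset 1.12 ± 0.22, adjusted p = 0.0271; lost without GCP 1, GCP 2, pretumor 1, pretumor 4 or pretumor 5, at 0.0548 to 0.0769). Ndrg1, a stress- and differentiation-induced protein found in myelinating glia, was highest at the pretumor stage: its means were 5.6, 7.5 and 5.36 (offset 2.02 ± 0.29, adjusted p = 0.00572), and its second probe set (160464_s_at) had an offset of 1.36.

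Below the line, several genes present at 7 days were already low at 6 weeks. Nid2, a basement membrane linker, read 5.5, 5.82, 5.93 and 5.67 in GCP and no more than 2.04 on any other array, with 4 of 5 tumor arrays at the floor of 1.3. Its offset was -1.94 ± 0.12 (adjusted p = 1.01e-05), and the pretumor level was at least 3.32-fold lower than GCP. Unc5c, a netrin receptor that guides migrating granule cell precursors, read 5.56, 5.59, 5.22 and 5.77 in GCP, 2.54, 2.2, 2.44, 2.5 and 2.62 in pretumor, and 2.57, 1.95, 2.29, 2.49 and 2.33 in tumor. Pretumor and tumor overlapped (offset -1.47 ± 0.11, adjusted p = 7.65e-05). Kcnd2, a potassium channel that appears as granule neurons mature, read 5.3, 5.9, 7.16 and 6.69 in GCP and at most 2.59 elsewhere (offset -2.02 ± 0.29, adjusted p = 0.00598). It was the only called gene of the granule neuron list. The second Kcnd2 probe set (98364_at), in the low band by its means, had an offset of -0.12 that did not pass (adjusted p = 0.258). Apbb1ip, an adaptor that links Rap1 to integrins, had means of 6.48, 3.23 and 3.3 (offset -1.66 ± 0.19, adjusted p = 0.00156).

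**Figure D5:**
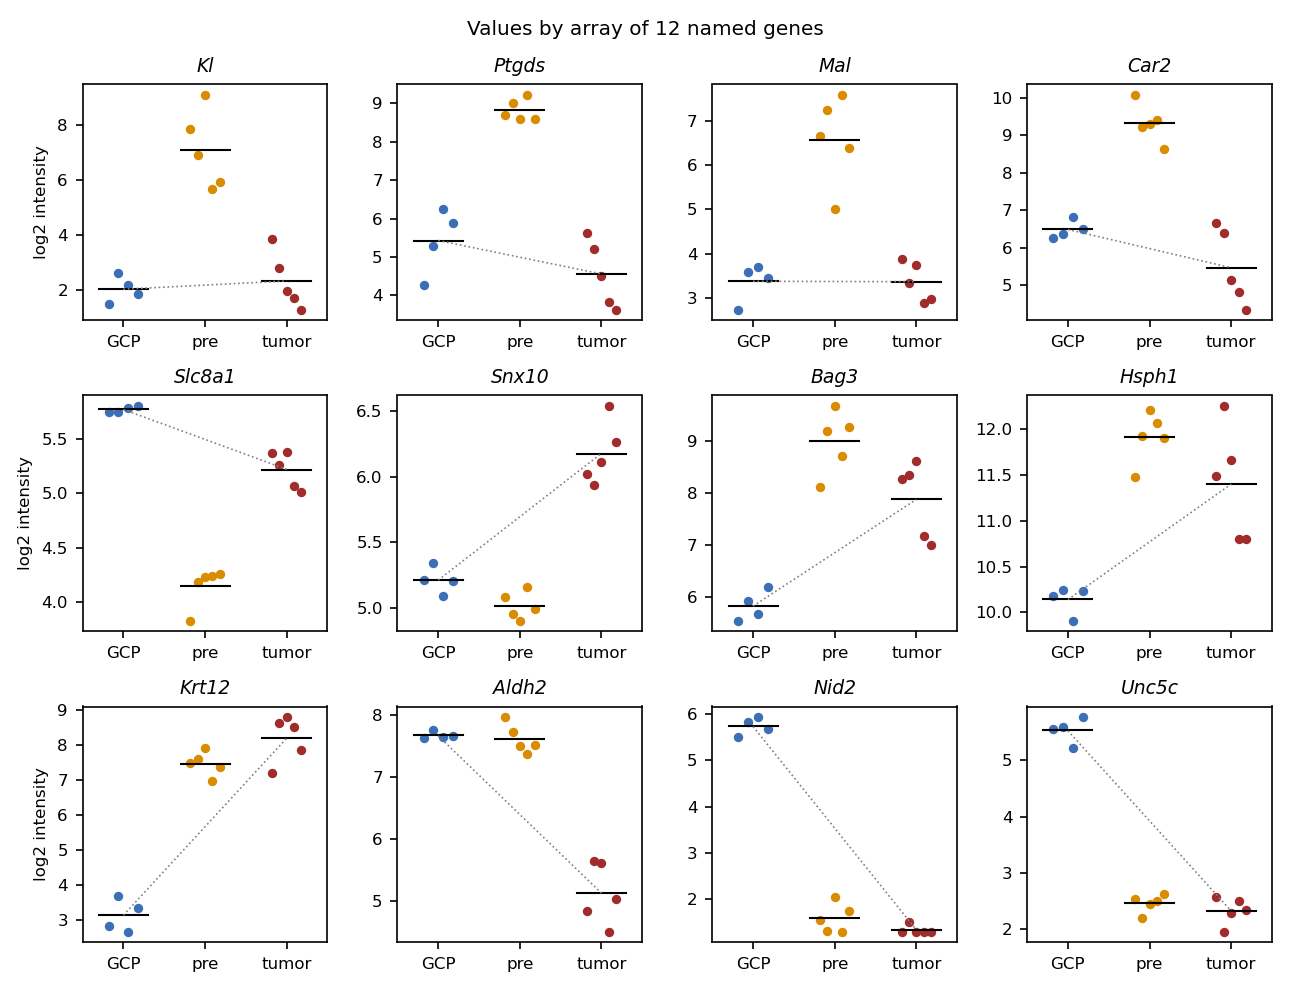
Log2 intensity (vertical axis, a separate range for each gene) by stage for 12 genes, with 1 point per array, a bar at each group mean and a dotted line from the GCP to the tumor mean. In Kl, Ptgds, Mal and Car2 the 5 pretumor arrays lie above all others, in Slc8a1 below all others, and in Nid2 and Unc5c the pretumor arrays lie near the tumor arrays.

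Fabp7 was also low at 6 weeks. It read 13.03, 13.52, 13.12 and 13.29 in GCP, 9.75, 10.09, 10.22, 9.66 and 9.2 in pretumor, and 9.82, 10.59, 8.74, 9.4 and 8.46 in tumor, so the pretumor mean was 11-fold lower than GCP while pretumor and tumor overlapped. The offset of -1.53 ± 0.31 (adjusted p = 0.0289) was lost without any 1 of GCP 2, GCP 3, GCP 4, pretumor 1, pretumor 2, pretumor 4, pretumor 5 or tumor 4 (adjusted p = 0.0505 to 0.0769). Of the meninges list, Col3a1, a fibrillar collagen, had means of 4.64, 2 and 2.6 (offset -1.63 ± 0.27, adjusted p = 0.0101), and Col4a1, a basement membrane collagen, had means of 8.65, 6.71 and 7.28 (offset -1.26 ± 0.24, adjusted p = 0.0226; lost without pretumor 2 or pretumor 4, at 0.0689 and 0.069). Cd93, a receptor of endothelium, had means of 5.4, 2.51 and 2.8 (offset -1.59 ± 0.29, adjusted p = 0.0152, and 0.0568 without pretumor 2). Cd93 was not on the endothelium and pericyte list, which had a median offset of -0.08. Of 17 measured members of that list, 1 lay above the line (Abcb1a, offset 0.53) and 1 below (Cdh5, offset -0.81), against 1.33% and 0.97% of all genes. Both had all means in the low band, and the Cdh5 call was lost without any 1 of 9 arrays. Tes, a focal adhesion protein, had means of 5.11, 2.11 and 2.47 (offset -1.68 ± 0.32, adjusted p = 0.0189; 0.0532 and 0.0638 without pretumor 1 and pretumor 2). Its second probe set (101550_at), in the low band by its means, had an offset of 0.04 that did not pass (adjusted p = 0.647).

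Of 17 measured cholesterol synthesis genes 2 were called below the line and 0 above, against 0.97% and 1.33% of all genes. At an unadjusted p under 0.05, 5 passed below and 0 above. The median offset of the list was -0.34 (-0.018 over all genes), and the 12 members with a group mean of 16 had offsets from -0.86 to -0.08. Nsdhl, a sterol dehydrogenase, read 8.28, 8.34, 8.53 and 8.45 in GCP, 6.43, 6.29, 6.76, 6.86 and 7 in pretumor, and 6.54, 6.3, 7.02, 6.58 and 6.83 in tumor. Pretumor and tumor overlapped (offset -0.86 ± 0.14, adjusted p = 0.00906), and 2 other Nsdhl probe sets had offsets of -0.52 that did not pass. Fdft1, squalene synthase, had means of 6.7, 5.82 and 5.84 (offset -0.45 ± 0.1, adjusted p = 0.0386; lost without any 1 of 11 arrays, all but GCP 4, pretumor 1 and tumor 1, at 0.0521 to 0.0966). The proteasome list, with 32 measured members, had a median offset of -0.12 and 1 call, Psmd14, a deubiquitinase of the regulatory lid. Psmd14 had means of 10.1, 9.66 and 9.99 (offset -0.39 ± 0.08, adjusted p = 0.03; lost without any 1 of GCP 3, GCP 4, pretumor 1, pretumor 2, pretumor 4 or pretumor 5, at 0.052 to 0.0915).

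Slc8a1, the sodium-calcium exchanger NCX1, was the only probe set called lower than both. It read 5.75, 5.75, 5.78 and 5.8 in GCP, 3.83, 4.19, 4.23, 4.24 and 4.26 in pretumor, and 5.37, 5.26, 5.38, 5.07 and 5.01 in tumor. The 3 groups did not overlap at all, with pretumor 3.07-fold lower than GCP and 2.1-fold lower than tumor (offset -1.34 ± 0.08, adjusted p = 1.01e-05; adjusted p for lower than both = 0.00104). That second p stayed between 0.000448 and 0.00731 without any 1 array. Both other Slc8a1 probe sets (93168_at and 99525_at) lay in the low band and were not called. Snx10, a sorting nexin of endosomes, read 5.21, 5.34, 5.09 and 5.2 in GCP, 5.08, 4.95, 4.9, 5.16 and 4.99 in pretumor, and 6.02, 5.94, 6.11, 6.54 and 6.27 in tumor. Pretumor overlapped GCP, and tumor lay above both (offset -0.68 ± 0.09, adjusted p = 0.00388).

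Mrps22, a mitochondrial ribosomal protein, had means of 6.46, 5.81 and 6.48, and all 5 pretumor arrays lay below the other 9 (offset -0.66 ± 0.11, adjusted p = 0.0123). Selenof, a selenoprotein of the endoplasmic reticulum and 1 of the brightest called genes, had means of 11.54, 11.09 and 11.47 (offset -0.42 ± 0.07, adjusted p = 0.011), and its second probe set (96249_at) had an offset of -0.54. Its pretumor arrays also lay below all others. Sstr2, a somatostatin receptor, had means of 8.63, 7.75 and 8.67, with all pretumor arrays lowest (offset -0.9 ± 0.2, adjusted p = 0.0444). That call was lost without any 1 of 11 arrays (all but GCP 1, tumor 3 and tumor 4; adjusted p = 0.0507 to 0.134), and its 2 other probe sets had offsets of -0.85 and -0.91 that just missed (adjusted p = 0.061 and 0.0576). Acly, which makes cytosolic acetyl-CoA, had a small offset of -0.22 ± 0.05 (adjusted p = 0.0409) that was lost without any 1 of 11 arrays (all but GCP 3, pretumor 4 and tumor 2; adjusted p = 0.0563 to 0.127).

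The number of genes called moved with the arrays used. Without pretumor 3 and tumor 2 together, 136 probe sets lay above the line and 101 below, 15 were higher than both stages, and 166 of the 239 calls were kept. The counts above the line without 1 array ran from 86 (without pretumor 2 or pretumor 4) to 159 (without tumor 3), and those below from 48 (without pretumor 2) to 109 (without tumor 2). Below the line the count also fell by more than 1.5 times without GCP 4 (66), pretumor 1 (65) and pretumor 4 (54).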

How the data were processed

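The authors deposited a table of 1 linear intensity per probe set and array; which method summarised and normalised them was not given in the sources used here. Deposited intensities were floored at their 10th percentile (2.455) and taken to log2, and 66 control probe sets were left out. limma 3.58.1 in R 4.3.3 fitted the 3 group means (11 residual degrees of freedom) and the offset was a contrast of them, called at an adjusted p under 0.05 (Benjamini-Hochberg over 12422 probe sets). Being outside both stages used the larger of both pairwise p-values, adjusted alike. In simulated data for this contrast over 12422 probe sets, 75% of offsets of 1 log2 unit and 98% of offsets of 2 were recovered, with 9 false calls among 182. The simulated offsets were placed only in probe sets with a mean well above the low band. GCP and tumor were given the same mean there. The recovery therefore does not apply to probe sets in or near the low band. Groups came from the titles. Figures used matplotlib 3.10.9.

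The rule for named genes took genes with a group mean of 16 or more: called outside both stages, up to 8 in each class of direction and nearer stage, up to 3 called members of each list or its brightest member where none was called (any member of the heat shock and immediate early lists), Ptch1 and the 5 brightest calls. Other genes in the text, such as those with all means in the low band and further list members, fall outside the rule and were named after their values were seen. Members and lists were chosen with earlier results of these data known. Gene names follow the platform annotation, which can be old; 8241 of 8251 were found in the RefSeq gene table. Floor, pseudocount, normalization, filter, variance model, array weights, replicate block, averaged GCP pairs, equal weights and each array left out were tried as alternatives.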

Additional observations from a re-analysis of the deposited data

Results flagged for a closer look

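In 147 groups of arrays from 49 called genes, 8 had 1 array that stood apart by Dixon's test, where chance gives about 1 in 20 groups. Slc8a1 read 3.83 on pretumor 1, against 4.19 to 4.26 on the other pretumor arrays, and Nfil3 read 3.69 on pretumor 3, against 4.74 to 5.06. Among tumor arrays, Col3a1 read 3.98 on tumor 3 against 2.04 to 2.36, Cdc6 read 7.61 on tumor 1 against 8.01 to 8.07, and Pgam1 read 10.34 on tumor 5 against 9.92 to 10.03. Among GCP arrays, Calb1 read 4.25 on GCP 4 against 2.26 to 2.36, and Dnajb2 read 4.28 on GCP 3 against 4.93 to 5.01. Nid2 read 1.51 on tumor 2, but the other tumor arrays all sit at the floor of 1.3, which fixes the ratio, so the test says nothing about it.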

How the results depend on the processing

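Of 76 probe sets followed, 24 kept their call in every alternative and 41 without any 1 array, and none of them changed sign. With all arrays 139 probe sets lay above the line, 100 below, 9 higher than both stages and 1 lower than both. A floor at 16 gave 39, 28, 0 and 1. Averaging the GCP arrays in 2 pairs gave 61, 51, 0 and 1. Array weights gave 426, 471, 45 and 3. A pseudocount of 16 gave 4 higher than both, and leaving out pretumor 3 and tumor 2 together gave 15. Leaving out 1 array gave 86 to 159 above, 48 to 109 below, 0 to 14 higher than both, and 1 lower than both each time. With the replicate block the counts were 96 above and 68 below, with 0 higher and 0 lower than both by limma (240 and 161 at an unadjusted p under 0.05). Whether same-numbered samples belong together was not settled. Correlations of same-numbered deviations ran from -0.27 to 0.51 between GCP and pretumor and from -0.32 to 0.3 in the other pairs of groups. No reference level was used here for these correlations, so they cannot decide it, and the replicate block is given as a value alone. The cause of these changes was not tested, except that a floor at 16 removes differences within the low band. The number of arrays limits the precision, and the deposited table gives no background for the low band.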
